A study of Equus caballus with 6 samples.

Results

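Immediate early response genes were examined in testicular parenchyma of stallions given dexamethasone or saline. The set holds 10 genes, FOS, FOSB, JUN, JUNB, EGR1, ATF3, IER2, IER3, MYC and BTG2, and its members were the array spots whose platform annotation gives exactly 1 of these symbols. This rule found 9 probes for 8 genes, out of 18278 genes that have such a probe. JUNB had 2 probes and FOS, FOSB, JUN, EGR1, ATF3, IER2 and IER3 had 1 each. FOSB and EGR1 each also occur on 1 probe annotated with several symbols, which the rule leaves out. MYC was annotated only on a probe it shares with another gene, and no probe was annotated to BTG2, so neither has a value here.

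All 6 animals were adult stallions that had 10 days to get used to the clinic. In the dexamethasone group 3 stallions received 0.1 mg/kg of the drug, a synthetic agonist of the glucocorticoid receptor, into a vein, and in the control group 3 stallions were given saline, matched in volume. In both groups the testes were taken 12 h later, and total RNA of the minced parenchyma, which holds the seminiferous tubules and the interstitial tissue between them, was read on 1 human CodeLink array per stallion. Every animal went through the same handling and collection, and there was no group without them, so a response of these genes to handling or surgery cannot be told apart from their resting level. The time between collection and freezing of the tissue is not given in the sources used here.

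Immediate early genes are switched on within minutes of a stimulus and need no new protein synthesis for it, since the transcription factors that act on them are already present in the cell. Their messages are short-lived, and many of the products are themselves transcription factors. FOS and FOSB pair with JUN and JUNB through leucine zippers to form the AP-1 factor, EGR1 binds GC-rich promoters through zinc fingers, and ATF3 is a stress-induced leucine zipper factor. MYC drives growth genes, BTG2 restrains proliferation, and IER2 and IER3 are small proteins induced by growth factors and stress. In the testis these genes respond to gonadotropins, growth factors and stress, and the activated glucocorticoid receptor can interfere with AP-1.

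Between 22690 and 24755 of 53423 gene probes were above background per dexamethasone array, and between 23809 and 25537 per control array, and the normalised arrays correlated at 0.982 to 0.989 over 15 pairs, which is across probes. The summed scaled intensity of markers fixed for each cell type was 187 to 233 in dexamethasone stallions and 243 to 277 in controls for Leydig cells (6 of 6 markers above background on at least 3 arrays). On the normalised scale 3 of these 6 lay above 0 and 3 below, with a median log2 difference of -0.04 and a lowest value of -1.21. For Sertoli cells the sums were 59.9 to 83.3 in dexamethasone stallions and 72.1 to 79.3 in controls (5 of 6, SOX9 on no array). Of the 5 Sertoli markers tested, 1 lay above 0 and 4 below on the normalised scale. Their median log2 difference was -0.06 and the highest value 0.48. Among germ cell markers, 6 of the 9 with a probe were readable on at least 3 arrays, and DDX4, PRM2 and TNP1 were readable on none. The human probes read horse transcripts, all 10 symbols occur in RefSeq's list of horse genes (assembly TB-T2T), and a dim probe does not show that the gene is silent. With groups of 3, the smallest p an exact permutation test of 1 value can reach is 0.1 (two-sided).

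The first question was which of the genes gave a readable signal. Detection was read from the signal strength, the spot mean divided by the spot's noise level, which equals the background median plus 1.5 times the background SD, and a value of 1 or less marks a spot near background. The probes fell into a readable and an unreadable set. EGR1, FOSB and both JUNB probes were above background in all 6 stallions, while JUN was above background in none and FOS, ATF3, IER2 and IER3 in 1 each. Being readable on at least 3 arrays thus held for 4 of 9 probes (44.4%), against 51.7% of all probes with 1 symbol.

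**Figure D1:**
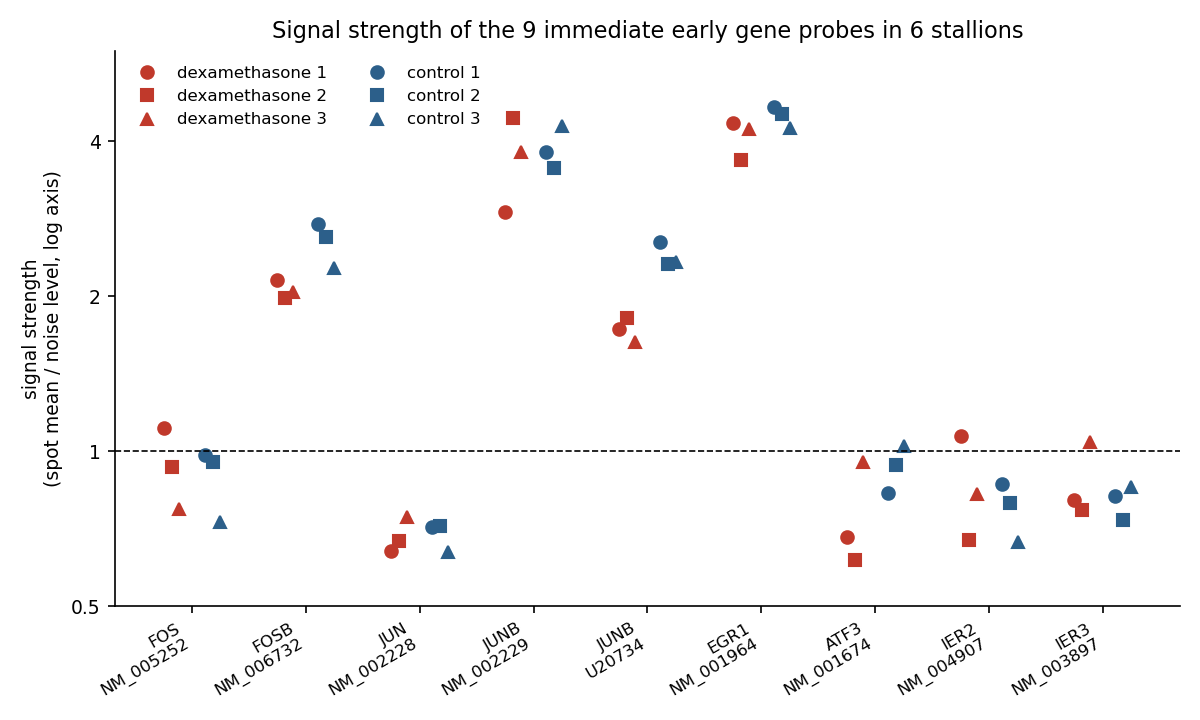
Signal strength (spot mean over noise level, log axis) of the 9 probes, with 1 point per stallion, dexamethasone stallions in red to the left of control stallions in blue, and the limit of 1 as a dashed line. The probes of EGR1, FOSB and JUNB lie above the line in all 6 stallions, those of FOS, ATF3, IER2 and IER3 cross it in 1 stallion each, and that of JUN lies below it in every stallion.

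FOS, the prototype of the family, had signal strengths of 1.11, 0.934 and 0.772 in dexamethasone stallions and of 0.985, 0.953 and 0.728 in controls. It was above background in dexamethasone replicate 1 only, and the groups overlapped. JUN, the main partner of FOS in AP-1, ran from 0.640 to 0.746 in dexamethasone stallions and from 0.637 to 0.716 in controls. None of these spots was well above background, so JUN gives no comparison.

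ATF3 had signal strengths of 0.681, 0.616 and 0.952 in dexamethasone stallions and of 0.830, 0.939 and 1.03 in controls, with control replicate 3 alone above background. IER2 had 1.07, 0.672 and 0.825 in dexamethasone stallions and 0.864, 0.795 and 0.667 in controls, with dexamethasone replicate 1 alone above background. IER3 had 0.803, 0.771 and 1.04 in dexamethasone stallions and 0.819, 0.734 and 0.853 in controls, with dexamethasone replicate 3 alone above background. The groups overlapped for each of these genes, and it was not the same stallion that carried the single readable spot. For FOS, ATF3, IER2 and IER3 a bound was set from the other group's arrays. Each array gave its lowest readable level or the spot's own level, whichever was higher, and these were averaged. The group with a readable spot had a mean below this bound, so no fold was given. These 5 genes did not meet the filter of 3 readable arrays and were not tested.

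The remaining 4 probes, of 3 genes, were compared between the groups on the normalised log2 scale with limma, adjusted over all 24590 probes tested. None of the 4 passed an adjusted p of 0.05, where 0.00407% of all probes passed. JUNB read by the probe to the GenBank record U20734 was lower in the dexamethasone stallions with an unadjusted p of 0.0197 in limma, a threshold of 0.05 that 1 of the 4 probes met, against 3.29% of all probes in either direction and 1.81% in the lower direction. The groups did not overlap for this probe and for FOSB, 2 of 4 with dexamethasone lower, against 5.07% of all probes. The median log2 difference of the 4 probes was -0.07, against -0.01 over all tested probes, whose quartiles were -0.07 and 0.06. It was -0.16 under median scaling and -0.15 with the authors' scaled intensities, where all tested probes had medians of -0.08 and -0.07. It was -0.11 with the spot median, -0.10 without dexamethasone replicate 3, and 0.00 with no filter, which brings in the dim member probes. By the brightest probe of each gene, 2 of the 3 tested genes lay above 0 and 1 below, with a median of 0.00. Under median scaling this was 1 above and 2 below, with a median of -0.12.

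**Figure D2:**
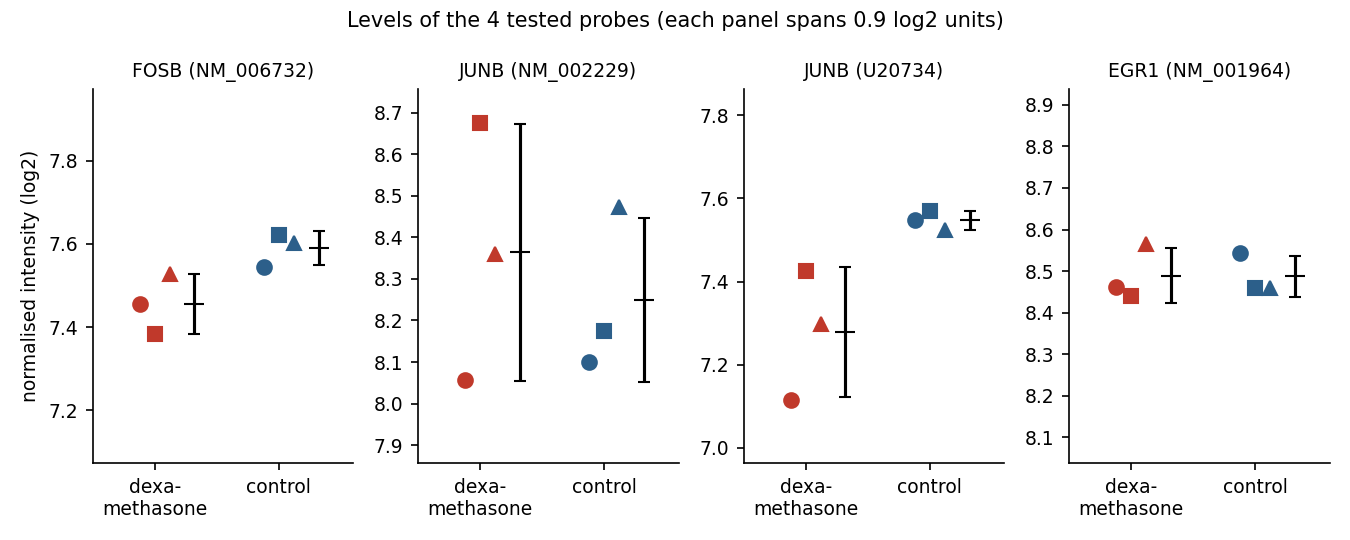
Normalised log2 intensity of the 4 tested probes, with 1 point per stallion and the mean and SD of each group beside it (n = 3 each), dexamethasone left of control. The FOSB probe and the JUNB probe to U20734 show groups that do not overlap, the other JUNB probe shows the widest scatter, and the EGR1 probe shows the narrowest.

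FOSB, a partner of the JUN proteins that can persist as a truncated, stable form in other tissues, had normalised log2 levels of 7.46, 7.38 and 7.53 in dexamethasone stallions and of 7.54, 7.62 and 7.60 in controls. Every dexamethasone stallion lay below every control stallion, by a narrow margin between dexamethasone replicate 3 and control replicate 1. The group means were 7.46 ± 0.07 in dexamethasone stallions and 7.59 ± 0.04 in controls (SD, n = 3 each), and the log2 difference was -0.13 ± 0.08 (SE). Its 95% interval ran from -0.32 to 0.05, which as a ratio of dexamethasone over control is 0.802 to 1.04, and limma's unadjusted p was 0.134 (adjusted p = 0.999). The exact two-sided permutation p was 0.1, the smallest this design can give.

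JUNB, an AP-1 subunit that can oppose JUN, had normalised log2 levels of 7.12, 7.43 and 7.30 in dexamethasone stallions and of 7.55, 7.57 and 7.52 in controls on the U20734 probe. The controls lay close together and all 3 dexamethasone stallions lay below them, with dexamethasone replicate 1 the lowest. The means were 7.28 ± 0.16 in dexamethasone stallions and 7.55 ± 0.02 in controls (SD, n = 3 each). The log2 difference was -0.27 ± 0.10 (SE), with a 95% interval from -0.48 to -0.05, a ratio of 0.831 for dexamethasone over control (limma adjusted p = 0.999). The exact two-sided permutation p was again 0.1. Without dexamethasone replicate 1 the difference was -0.19 (unadjusted p = 0.0804), and without control replicate 2 it was -0.26 (unadjusted p = 0.0538), both from limma.

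The second JUNB probe, to the RefSeq record NM_002229, did not show this. Its normalised log2 levels were 8.06, 8.68 and 8.36 in dexamethasone stallions and 8.10, 8.17 and 8.47 in controls. Dexamethasone replicate 1 was the lowest of the 6 stallions and dexamethasone replicate 2 the highest, so the dexamethasone group enclosed the controls. The means were 8.36 ± 0.31 in dexamethasone stallions and 8.25 ± 0.20 in controls (SD, n = 3 each), and the log2 difference was 0.11 ± 0.16 (SE; 95% interval -0.23 to 0.46; limma adjusted p = 0.999). Without dexamethasone replicate 2 this difference was -0.04, and with the mean of both probes JUNB differed by -0.08 ± 0.12 (SE; limma unadjusted p = 0.547).

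The disagreement of the JUNB probes was measured within each array as the log2 value of the NM_002229 probe minus that of the U20734 probe. This gap was 0.94, 1.25 and 1.06 in dexamethasone stallions and 0.55, 0.60 and 0.95 in controls. Dexamethasone replicate 1 lay just below control replicate 3, so the groups overlapped, and the other dexamethasone values lay above all controls. The gap averaged 1.08 ± 0.16 in dexamethasone stallions and 0.70 ± 0.22 in controls (SD, n = 3 each; exact two-sided permutation p = 0.2). With a smallest possible p of 0.1, this test does not settle whether the gap differed between the groups, and the 2 probes give JUNB differences of opposite sign.

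EGR1, a zinc finger factor whose mouse homologue is needed for pituitary LH production, had normalised log2 levels of 8.46, 8.44 and 8.57 in dexamethasone stallions and of 8.54, 8.46 and 8.46 in controls. The groups overlapped fully and all 6 stallions lay within 0.12 log2 units. The means were 8.49 ± 0.07 in dexamethasone stallions and 8.49 ± 0.05 in controls (SD, n = 3 each). The log2 difference was 0.00 ± 0.08 (SE), and its 95% interval from -0.18 to 0.19 bounds the ratio of dexamethasone over control at 0.882 to 1.14 on the normalised scale (limma adjusted p = 0.999). The sign of this difference turned with the scaling, and it was -0.12 under median scaling of the arrays, where all tested probes had a median of -0.08.

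The files carry the slide numbers, which form 2 runs, of 4 arrays (2 dexamethasone, 2 control) and 2 arrays (1 of each). Within the first and the second run the log2 difference was -0.29 and -0.22 for the U20734 probe of JUNB and -0.16 and -0.08 for FOSB. The shared direction of the runs was fixed in advance for these probes, because their groups do not overlap. The difference was 0.23 and -0.11 for the NM_002229 probe of JUNB and -0.05 and 0.11 for EGR1, of opposite direction in the 2 runs. With the run as a block, the U20734 probe differed by -0.27 ± 0.10 (SE; limma unadjusted p = 0.0273, adjusted p = 0.998).

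**Figure D3:**
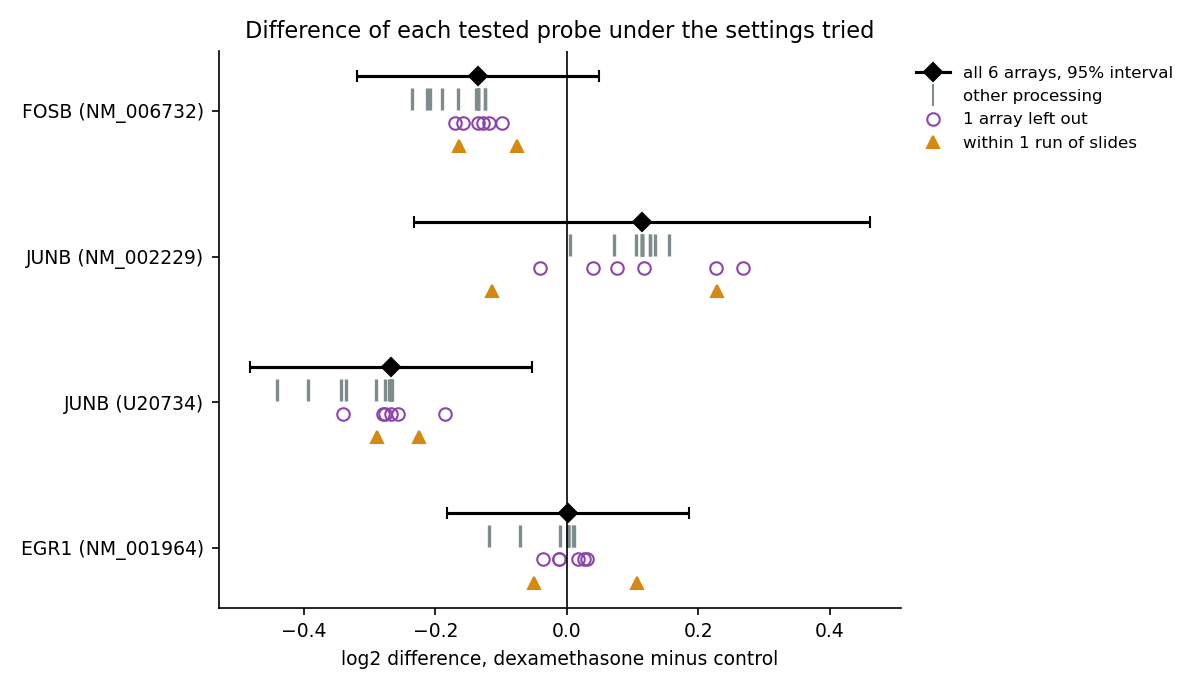
Log2 difference (dexamethasone minus control) of the 4 tested probes with its 95% interval (black diamonds), under other processing (grey ticks), with 1 array left out (purple circles) and within each run of slides (orange triangles). All points of the FOSB probe and of the U20734 probe of JUNB lie below 0, though the 95% interval of FOSB crosses 0. Points of EGR1 and of the NM_002229 probe of JUNB lie on both sides.

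Fewer probes were above background in dexamethasone replicate 2 (22690) than on any other array. Spots with the quality flags C, I or P were not counted as above background. That array had the most of them, 1189, against 320 to 807 on the others. The lower values of FOSB and of the U20734 probe of JUNB came with lower summed scaled intensities of some marker lists, the Leydig list given above among them. On that scale, which carries no quantile normalisation, all tested probes had a median log2 difference of -0.07. Endothelial markers, of which 3 of 5 were readable on at least 3 arrays and KDR on none, summed to 48.1 to 59.2 scaled intensity units in dexamethasone stallions and 58.3 to 66.7 in controls. Peritubular myoid markers, 2 of 3 with a probe readable and MYH11 on no array, summed to 12.0 to 12.7 in dexamethasone stallions and 14.8 to 15.0 in controls. Macrophage markers, 2 of 5 readable and CD14, CD163 and CSF1R on no array, summed to 16 to 18.9 in dexamethasone stallions and 15.6 to 17.3 in controls. Lymphocyte markers, 4 of 5 readable and PTPRC on no array, summed to 12.7 to 13.9 in dexamethasone stallions and 12.8 to 15.8 in controls. Spermatid markers, 3 of 5 readable, summed to 7.25 to 9.34 in dexamethasone stallions and 8.64 to 10.9 in controls. Spermatogonia and spermatocyte markers, 3 of 4 readable, summed to 41.9 to 52.7 in dexamethasone stallions and 46.4 to 54.6 in controls. The 1 erythrocyte marker with a probe read 2.34 to 3.67 in dexamethasone stallions and 2.24 to 2.81 in controls. The Leydig and peritubular myoid sums did not overlap between the groups, and the others did. How often sums of other probes would not overlap was not computed. On the normalised scale the 2 tested peritubular myoid markers differed by -0.22 and -0.02 (log2). The part of these marker levels in the FOSB and JUNB values was not tested, and in whole tissue fewer cells of a type and less RNA per cell cannot be told apart.

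The spread between animals differed among the readable genes. The pooled SD within groups was 0.26 log2 units for the NM_002229 probe of JUNB, larger than for 94.5% of the 22332 tested probes with 6 values, and 0.11 for its U20734 probe, larger than for 45.3%. It was 0.06 for FOSB and 0.06 for EGR1, larger than for 8.18% and 8.13% of the probes, where the median was 0.12. The SD over all 6 stallions, which holds the group difference too, was larger than for 27.3% of the probes for FOSB, 3.93% for EGR1, 81.7% for the U20734 probe of JUNB and 93.3% for its NM_002229 probe. The offset used in background correction narrows the spread of dim probes, so these ranks depend in part on brightness. The pixels of a spot, which are not independent, gave standard errors of 4.11% to 8.10% of the background-subtracted signal for the spots of these 4 probes.

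No stallion stood at the top of the whole set. Over the 9 probes, dexamethasone replicate 3 held the highest value for 3 (JUN, EGR1 and IER3), dexamethasone replicate 1 for 2 (FOS and IER2), control replicate 2 for 2 (FOSB and the U20734 probe of JUNB), and control replicate 3 (ATF3) and dexamethasone replicate 2 (the other JUNB probe) for 1 each. Control replicate 1 held none. The lowest value lay in dexamethasone replicate 2 for 5 of the 9 probes, FOSB, JUN, EGR1, ATF3 and IER2. On that array the fewest probes were above background, with flagged spots not counted. For the 5 dim genes these ranks order values near background.

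The NM_002229 probe of JUNB had the largest SD over the 6 stallions among the tested members (0.24), and the probes with the most similar pattern were looked up among 11010 others with 1 symbol and 6 values. The highest Pearson correlations over the 6 arrays were 0.994 for PAK1IP1, a nucleolar protein of ribosome assembly, 0.992 for SLC28A3, a nucleoside transporter, 0.986 for FOCAD-AS1, an antisense RNA, 0.985 for EIF4A3, an RNA helicase of the exon junction complex, and 0.984 for ENTPD4, a nucleotidase. With so few arrays and so many probes, high values are found for any pattern, and these are given as a description.

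To place these genes, 4 related lists were read with the brightest tested probe of each gene, 70 tested genes in all, and none passed limma's adjusted p of 0.05, as for 0 of 10604 genes read this way. At an unadjusted p under 0.05, 3 of the 70 were lower and 0 higher, against 2.1% lower and 1.76% higher over all genes.

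**Figure D4:**
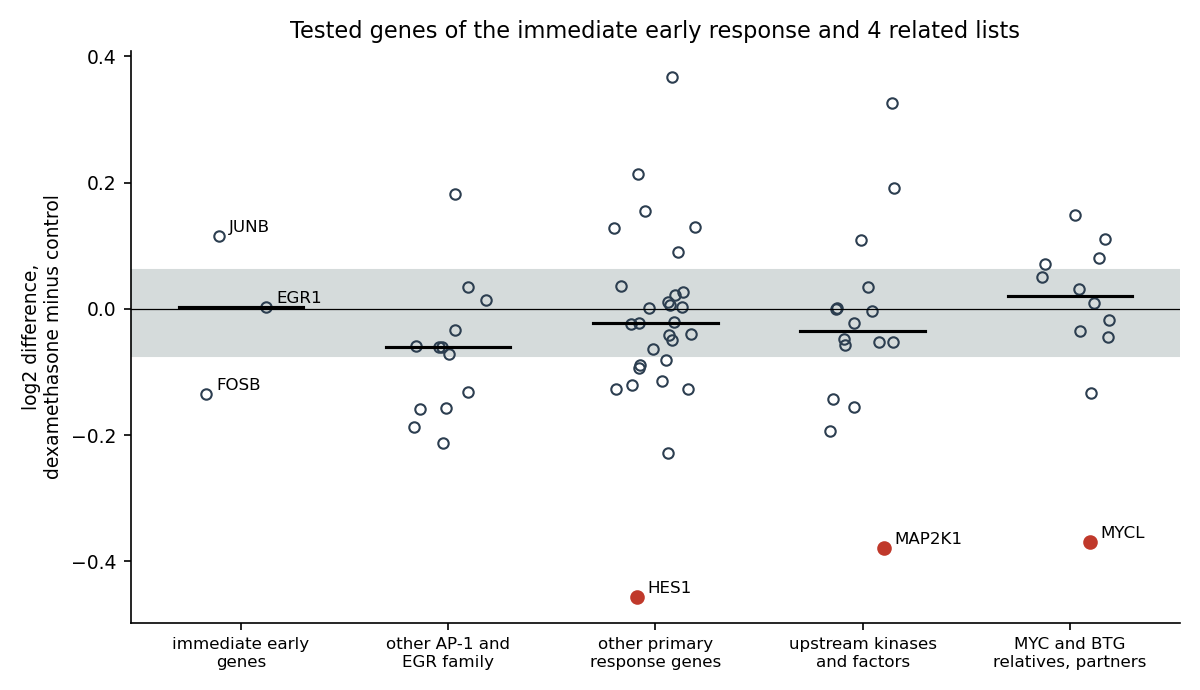
Log2 difference (dexamethasone minus control) of each tested gene, by its brightest probe, for the immediate early genes and the 4 related lists, with list medians as black bars and the range between the quartiles of all tested probes as the grey band. Filled red points are HES1, MAP2K1 and MYCL, the genes at an unadjusted p under 0.05. The genes listed with the AP-1 and EGR families, NAB1 and NAB2 among them, lie mostly below 0.

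Of 17 other genes listed with the AP-1 and EGR families, 13 were tested. The 13 include NAB1 and NAB2, corepressors that bind EGR proteins and belong to neither family, both below 0. Of the 13, 10 lay below 0 and 3 above, against 52.7% of all genes below 0. Their median log2 difference was -0.06, against -0.01 over all genes. Between 9 and 11 of the 13 lay below 0 under all the settings that tested all 13, and 10 and 11 within the 2 runs of slides. These settings reuse the same 6 arrays. Under median scaling and with the authors' scaled intensities all tested probes had medians of -0.08 and -0.07. None of the 13 met an unadjusted p of 0.05 in limma. MAFF, a small Maf protein that pairs with leucine zipper factors, had log2 levels of 8.72, 8.74 and 8.63 in dexamethasone stallions and 8.49, 8.48 and 8.57 in controls, a difference of 0.18 ± 0.08 (SE). ATF2, a stress kinase target that pairs with JUN, had 10.34, 10.31 and 10.33 in dexamethasone stallions and 10.50, 10.62 and 10.43 in controls, a difference of -0.19 ± 0.09 (SE). The groups overlapped for neither. With dexamethasone lower, as for ATF2, the groups did not overlap for 5.07% of all probes, and the share with dexamethasone higher was not computed. A second ATF2 probe differed by -0.21 ± 0.13 (SE). ATF4, the effector of the integrated stress response, differed by -0.21 ± 0.11, JUND, the AP-1 subunit most often present without a stimulus, by -0.16 ± 0.11, and FOSL2, a slower FOS relative, by -0.16 ± 0.12 (log2, SE), with groups that overlapped. Without control replicate 2 JUND differed by -0.06 and FOSL2 by -0.07, and without dexamethasone replicate 1 ATF4 differed by -0.13.

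Of 47 symbols of other primary response genes, 41 had a probe and 29 were tested, 13 above 0 and 16 below, with a median of -0.02. The split was 6 above and 23 below under median scaling, and 17 above and 12 below without dexamethasone replicate 1. HES1, a repressor induced by Notch signalling and by serum, had log2 levels of 7.71, 8.30 and 7.98 in dexamethasone stallions and 8.12, 8.62 and 8.61 in controls. Control replicate 1 lay below dexamethasone replicate 2, so the groups overlapped, and the difference was -0.46 ± 0.17 (SE; limma unadjusted p = 0.0237, adjusted p = 0.999). GADD45A, a growth arrest gene, differed by 0.37 ± 0.22 (SE), but by 0.08 without dexamethasone replicate 2. PHLDA1 differed by -0.23 ± 0.13, or -0.08 without dexamethasone replicate 1, with 0.11 ± 0.14 on a second probe. DUSP6, a phosphatase that turns off ERK, differed by 0.21 ± 0.14, or 0.06 without dexamethasone replicate 2, and NR4A3, an orphan nuclear receptor, by 0.13 ± 0.09, or -0.03 under median scaling (log2, SE).

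Of 27 symbols of upstream kinases and factors, 16 genes were tested, 5 above 0 and 11 below, with a median of -0.04, or 2 above and 14 below under median scaling and 8 each without control replicate 3. MAP2K1, the kinase that activates ERK, had log2 levels of 7.32 and 7.63 in the 2 dexamethasone stallions with a usable spot and 7.77, 7.99 and 7.81 in controls. The groups did not overlap, as for 5.07% of all probes with dexamethasone lower. Groups of 2 and 3 values separate more easily than 2 groups of 3, and the share over such probes was not computed. The difference was -0.38 ± 0.12 (SE; limma unadjusted p = 0.0138, adjusted p = 0.999), or -0.22 without dexamethasone replicate 1 and -0.30 with the flagged spot kept. CREM, a cAMP-responsive factor with a testis activator form that drives spermatid genes in mice, differed by 0.19 ± 0.11 (SE), with 0.07 ± 0.08 on a second probe and 0.04 under median scaling for the first. MAPK3, ERK1, differed by 0.33 ± 0.27, at 0.87 and -0.76 within the runs of slides. CREBBP, a coactivator of CREB and AP-1, had a readable spot in 1 of 3 dexamethasone stallions and all 3 controls, so it was tested through the group in which it was brighter, and it differed by -0.19 ± 0.13 (log2, SE), or -0.04 without dexamethasone replicate 2 and -0.78 with background subtraction. RPS6KA3, a kinase downstream of ERK, differed by -0.16 ± 0.14 (log2, SE), or -0.03 without dexamethasone replicate 2 and -0.31 without dexamethasone replicate 3.

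Of 19 symbols of MYC and BTG relatives and partners, 12 genes were tested, 7 above 0 and 5 below, with a median of 0.02. The split turned with the scaling, to 3 above and 9 below with a median of -0.10 under median scaling and to 4 above and 8 below with the authors' scaled intensities. MYCL, a MYC relative, had log2 levels of 6.65, 6.59 and 6.35 in dexamethasone stallions and 7.01, 6.81 and 6.88 in controls. Its spot was readable in 2 of the dexamethasone stallions and all 3 controls. The groups did not overlap, as for 5.07% of all probes with dexamethasone lower. The difference was -0.37 ± 0.10 (SE; limma unadjusted p = 0.00521, adjusted p = 0.999). With the authors' scaled intensities, which have no offset, it was -0.80. TOB1 and TOB2, antiproliferative relatives of BTG2, differed by 0.15 ± 0.15 and 0.11 ± 0.12, BTG3, of the same family, by -0.13 ± 0.12 with 2 usable controls, or -0.04 without dexamethasone replicate 1, and MLX, a leucine zipper partner in the MYC network, by 0.07 ± 0.09 (log2, SE). Without control replicate 1 TOB1 and TOB2 differed by 0.01 each, and under median scaling TOB2 differed by -0.05.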

How the data were processed

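Per the labels' protocols, RNA was prepared with Tripure, labelled by the CodeLink manual cRNA protocol and read as Alexa-647. No source used here names the scanner software. The deposited files give for each of 54990 spots the spot mean and background median as intensities, a scaled intensity and, per the file headers, a signal strength, which is a score. Spots flagged C, I, M or P were treated as missing, and probe names printed more than once were left out as controls. Background correction by normexp with an offset of 50 and quantile normalisation were done with limma 3.58.1 (R 4.3.3), and the intensities were taken as log2. The offset compresses differences of dim probes. Median spot intensity was 72.6 to 79.4 over a background of 47 to 50. A probe was tested if above background on at least 3 arrays with at least 2 values per group. The test was lmFit and eBayes, two-sided, without covariates, with Benjamini-Hochberg adjustment over 24590 probes, and it was checked on simulated data. The brightest probe stood for a gene in the lists. The 5 genes with the smallest p of each list are named. Groups came from the labels, and replicate numbers follow sample order and pair no stallions. Nothing says that runs of slides were processed apart. Members and lists were chosen with earlier results of these data known. Likeness was computed for the tested member with the largest SD. Permutation tests used SciPy 1.17.1 and figures matplotlib 3.10.9 in Python 3.11.15. Alternatives were other background corrections, normalizations, filters, variance settings, array weights, the run as a block, kept flagged spots, the authors' values, the mean of a gene's probes and 1 array left out. The spot median, and the count at an unadjusted p, were added after seeing the data.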

Additional observations from a re-analysis of the deposited data

How the results depend on the processing

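No paired analysis was possible because the labels give no replicate numbers shared between the groups. No member probe and none of the genes in the related lists passed limma's adjusted p of 0.05 under any alternative run. Member probes at an unadjusted p under 0.05 numbered 1, and 2 with the spot median, where FOSB differed by -0.21, and 0 to 1 without each array in turn. All probes past the adjusted p came to 1. They came to 0 under background subtraction, under the filter requiring 6 readable arrays and under eBayes with trend and robust settings, and leaving out single arrays gave 0 to 3. FOSB kept its direction in 20 of 20 alternatives (-0.24 to -0.08) and the U20734 probe of JUNB in 20 of 20 (-0.44 to -0.19). The groups do not overlap for these 2 probes, so leaving out an array or taking 1 run of slides could not turn the sign. Filters and variance settings leave the estimate unchanged, so much of this count was fixed in advance. The U20734 probe had a limma unadjusted p under 0.05 in 16 of the 18 alternatives with a test. The NM_002229 probe of JUNB turned in 2 of 20, at -0.041 without dexamethasone replicate 2 and -0.11 within the second run of slides, ran from -0.041 to 0.27 without each array in turn, and the mean of both JUNB probes gave -0.077. EGR1 turned in 7 of 20, at -0.12 with median scaling, -0.071 with the authors' values, -0.0096 with the spot median, -0.050 within the first run, and without control replicate 2, control replicate 3 or dexamethasone replicate 3 (-0.036 to 0.030 without each array). The cause of these turns was not tested. Of the 808 probes at an unadjusted p under 0.05, 44.8% were higher, against 6.17% of 1798 with median scaling and 26.0% of 838 with the authors' values. The number of arrays limits the precision, and 5 of the 8 genes lie too near background to compare.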
